A study of Homo sapiens with 18 samples.

Results

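The proteasome genes were followed in 3 human acute myeloid leukaemia cell lines treated with an SHP2 inhibitor. Members were the genes whose symbol consists of PSM, a letter from A to G and a number, and whose mean over the 18 libraries was at least 1 CPM (reads per 1e6 of the effective library size). Of the 40184 genes in the deposited table, 48 had such a symbol and 46 passed. The thymus-specific PSMB11 stayed out with a mean of 0.0235 CPM. PSMA2, a core alpha subunit, stayed out with a mean of 0.857 CPM, a value that is uncertain: the gene shares 14.6% of its exonic bases with the same-strand gene model AC010132.3, and how reads of overlapping genes were counted is not given in the sources used here. The member nearest above the limit was PSMA8. RNA was sequenced from Molm-14 and MV4-11, labelled FLT3-ITD, and from SKNO-1, labelled KIT N822K. Cells of each line were given DMSO or RMC-4550 at 500 nM and taken after 24 h, which makes 6 groups of 3 replicates. Where 3 values follow each other for 1 gene "in the 3 lines", their order is Molm-14, MV4-11, SKNO-1. SKNO-1 alone was cultured with 10 ng/mL human GM-CSF, in its DMSO and its treated cultures, so that line and growth factor cannot be told apart. RMC-4550 holds SHP2, the phosphatase encoded by PTPN11, in its inactive form and so limits the passage of receptor kinase signals to RAS. Each line is 1 cell line with its own history, and differences between lines carry everything in which the lines differ.

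The proteasome is the protease that degrades ubiquitin-tagged proteins in the cytosol and nucleus. Its 20S core is a barrel of alpha rings, formed by PSMA subunits, around beta rings, formed by PSMB subunits, and PSMB5, PSMB6 and PSMB7 carry the proteolytic sites of the constitutive form. Interferon signalling induces the immunosubunits PSMB8, PSMB9 and PSMB10, which take the places of PSMB5, PSMB6 and PSMB7 in the immunoproteasome and alter which peptides are made for MHC class I, and it also induces PSME1 and PSME2, which form the 11S activator. The 19S regulatory particle, built from the PSMC ATPases and the PSMD non-ATPase subunits, recognizes and unfolds substrates. PSMG genes encode chaperones of 20S assembly, and PSMD5, PSMD9 and PSMD10 encode chaperones of 19S assembly. Haematopoietic cells are known for carrying immunosubunits without an added stimulus.

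Recovered read totals lay between 17434810 and 19959917 per library. The share of reads in mitochondrial genes was 5.07% to 7.02% in 14 libraries. It was 15.02% for treated Molm-14 replicate 2, 12.7% and 14.6% for MV4-11 DMSO replicates 1 and 3, and 10.5% for treated MV4-11 replicate 1. The counts of members that fell are given below with and without these 4 libraries, as are the single genes for which it is stated. The myeloid markers PTPRC, CD33, CSF1R, ITGAM and SPI1 were detected in every library. The granule gene MPO ran from 315 to 437 CPM in SKNO-1 and stayed under 5 CPM in the other lines. The T cell genes CD3E and CD3D, the B cell gene MS4A1 and the epithelial gene EPCAM had at most 2 reads in any library. These are bulk samples, in which fewer cells of a type and less RNA per cell cannot be told apart. The labels call the replicates biological without saying how the cultures were separated, so p-values measure the spread between these samples.

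In DMSO all 46 members except PSMA8 were detected in every line. PSMB4, a structural beta subunit, had the highest level per length (RPKM, CPM per kilobase of the principal transcript) in every line: 201 ± 3.27 in Molm-14, 205 ± 12.7 in MV4-11 and 159 ± 14.4 for SKNO-1 (mean ± SD, n = 3, as are all such values below). PSMB8 stood at 112 ± 6.95 RPKM in Molm-14, 96.8 ± 5.65 in MV4-11 and 46.5 ± 2.43 for SKNO-1. Its constitutive counterpart PSMB5 stood at 32.5 ± 1.49, 27.0 ± 4.66 and 35.8 ± 1.24 RPKM in the same order. On this scale the immunosubunit PSMB8 exceeded PSMB5 in every line. The other immunosubunits did not exceed their counterparts on average. The mean per-length ratio of PSMB9 to PSMB6 was 0.927, 0.984 and 0.374 in the same order. Its MV4-11 libraries ran from 0.824 to 1.12. The ratio of PSMB10 to PSMB7 was 0.296, 0.328 and 0.389.

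**Figure D1:**
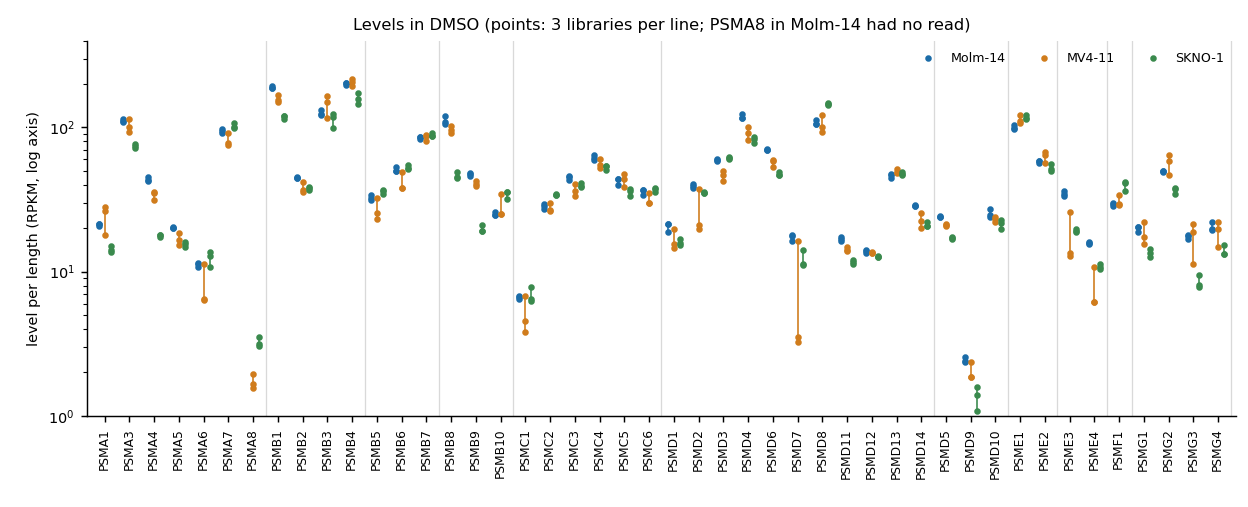
Level per transcript length (RPKM, log axis) of the 46 members in DMSO, ordered by role from the alpha ring on the left to the 20S chaperones on the right. Points are the 3 libraries of each line, joined by a vertical line. PSMD7, PSMD2, PSME3, PSME4 and PSMA6 are wide in MV4-11, and PSMB8 and PSMB9 are lowest in SKNO-1.

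The untreated lines differed in individual proteasome genes. Between Molm-14 and MV4-11 in DMSO, 19 members were higher and 2 lower in Molm-14 at a limma adjusted p under 0.05, where 27.9% and 26.2% of all genes tested were higher and lower. Against Molm-14, SKNO-1 had 6 members higher and 24 lower, where 32.5% and 32.7% of all genes were. Against MV4-11 it had 8 higher and 15 lower, where 19.4% and 22.2% of all genes were. These 3 comparisons share their DMSO groups. The 21 calls between Molm-14 and MV4-11 became 11 or 12 without DMSO replicates 2 or 3 of Molm-14 or DMSO replicates 1 or 3 of MV4-11. PSMB8 was 122, 119 and 134 CPM in the Molm-14 replicates, 108, 103 and 116 in MV4-11 and 50.5, 51.0 and 55.5 for SKNO-1. PSMB9 was 37.5, 37.1 and 35.9 CPM in Molm-14, 30.7, 31.7 and 33.1 in MV4-11 and 14.9, 14.9 and 16.6 for SKNO-1. For both immunosubunits every SKNO-1 library lay below every library of the other lines. The SKNO-1 difference from Molm-14 was -1.26 for PSMB8 and -1.25 for PSMB9 on the log2 scale (adjusted p 1.2e-09 and 7.9e-10), and from MV4-11 it was -1.06 and -1.05 (adjusted p 4.6e-08 and 3.3e-08). The third immunosubunit did not share this order. PSMB10 was 30.1, 30.2 and 31.7 CPM in Molm-14, 30.7, 42.1 and 30.3 in MV4-11 and 38.9, 43.4 and 43.7 for SKNO-1, and SKNO-1 was higher than Molm-14 by 0.45 (SE 0.16) log2 units (adjusted p 0.021). Its difference from MV4-11 was 0.30 (adjusted p 0.137).

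Other members that were lower in SKNO-1 than in both FLT3-ITD lines included the alpha subunit PSMA4 and the 20S chaperone PSMG3. PSMA4 was 199.5, 190 and 188 CPM in Molm-14, 154, 138 and 157 in MV4-11 and 78.6, 76.6 and 79.1 for SKNO-1, which gave SKNO-1 differences of -1.3 and -0.94 from the other lines. PSMG3 was 24.6, 23.2 and 25.1 CPM in Molm-14, 26.1, 15.8 and 29.6 in MV4-11 and 11.3, 10.9 and 13.1 for SKNO-1, with differences of -1.05 and -0.97. PSMA8, the testis form of an alpha subunit, had no read in any Molm-14 library. It reached 3.5, 3.02 and 2.81 CPM in MV4-11 and 6.32, 5.69 and 5.51 in SKNO-1 with DMSO. Against a floor of 3 reads over the Molm-14 DMSO group, which covers counting error only, PSMA8 was at least 55.2-fold higher in MV4-11 and at least 104-fold higher in SKNO-1. Between the FLT3-ITD lines, the largest differences in detected members were in the activators PSME3 and PSME4 and in the 19S subunits PSMD7 and PSMD2, higher in Molm-14 by 1.07, 1.09, 1.60 and 0.65. These 4 genes were low in the MV4-11 DMSO libraries with a high mitochondrial share. Without the 4 high-share libraries, which leaves 1 MV4-11 DMSO library, the differences were 0.41, 0.55, 0.08 and 0.07.

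RMC-4550 was followed by lower levels of proteasome genes in all 3 lines. In Molm-14, 32 of the 45 members tested fell and 0 rose, where 25.2% of all 13971 genes tested fell and 21.5% rose. In SKNO-1, 26 of 46 fell and 1 rose, where 16.2% of all genes fell and 10.8% rose. In MV4-11, 15 of 46 fell and 0 rose, where 8.03% of all genes fell and 5.85% rose. All treated libraries lay below all DMSO libraries for 37 members in Molm-14, 17 in MV4-11 and 36 for SKNO-1, where 33.1%, 13.5% and 35.4% of all genes did, and above them for 2 members in SKNO-1, where 26.6% did. The median log2 change over the members was -0.45 in Molm-14, -0.22 in MV4-11 and -0.43 for SKNO-1, beside -0.06, -0.01 and -0.05 over all genes tested. At an unadjusted p under 0.05, limma had 0 members higher in Molm-14 and 1, PSMB10, in MV4-11. With voom weights on the recovered reads the counts of adjusted calls were the same. In MV4-11 a fit on that line alone called 0 members (17 lower and 0 higher at an unadjusted p under 0.05). How many of all genes that fit called is not given here. Leaving out single libraries moved the 15 members called lower in MV4-11 to between 7 and 18. The count was 7 without treated replicate 2 and 8 without treated replicate 3 or DMSO replicate 3 of MV4-11. Of the called genes of the whole table in SKNO-1, 40.01% were higher under the deposited scaling and 50.4% under median-ratio scaling.

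**Figure D2:**
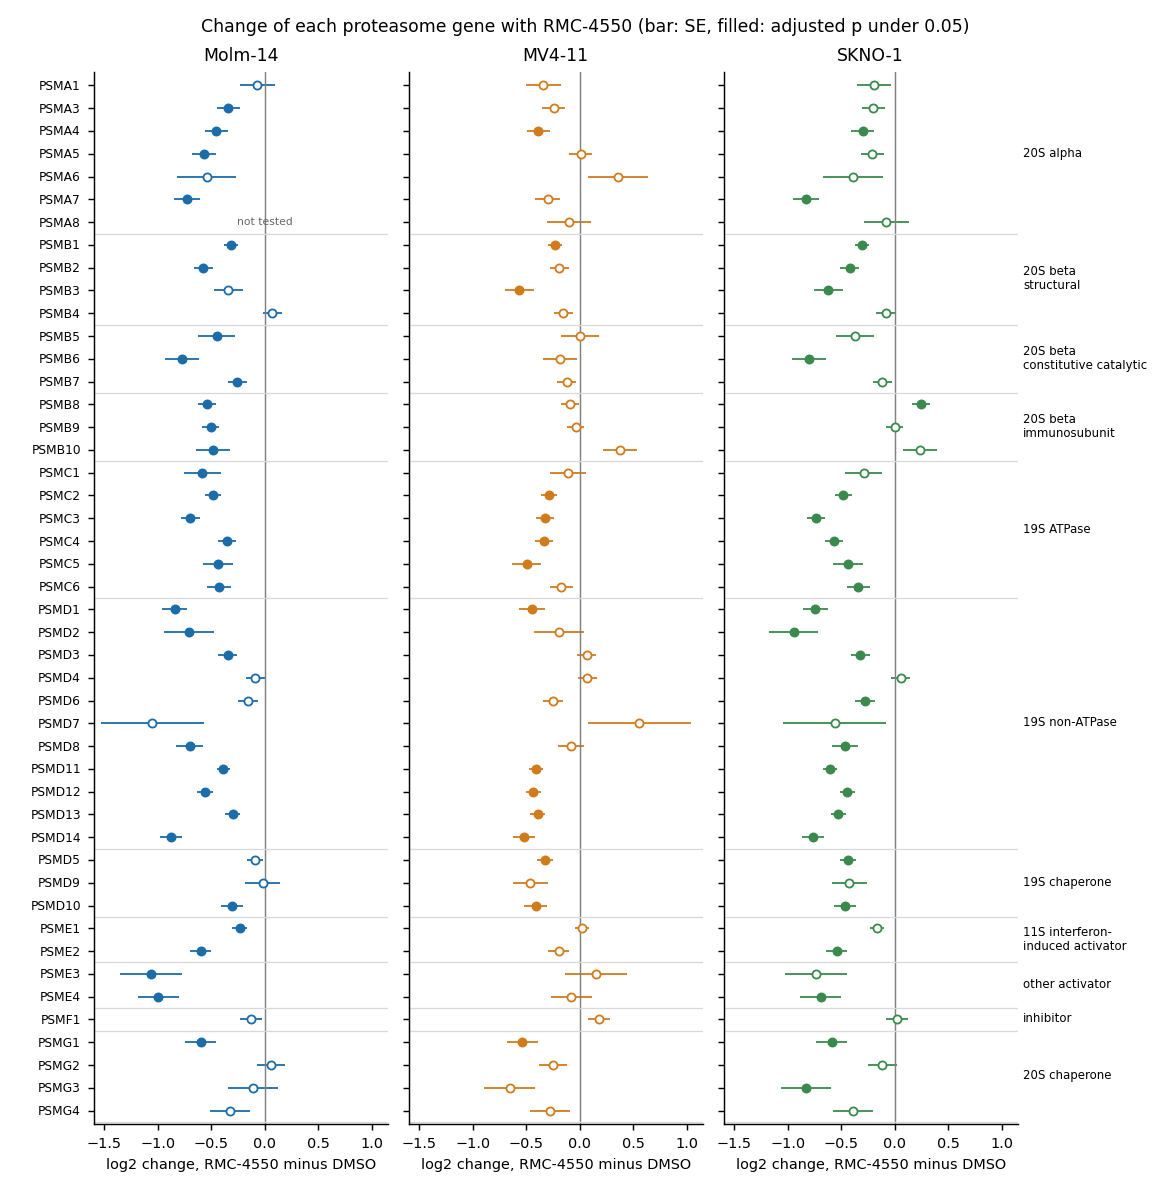
Log2 change with RMC-4550 (treated minus DMSO) of each member in each line, grouped by role. Points are limma estimates with their SE as bars, and filled points passed an adjusted p of 0.05. All filled points lie left of 0 except PSMB8 in SKNO-1.

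Together the summed level of all 46 members was 3791 ± 42.4 CPM in Molm-14 with DMSO and 2877 ± 86.8 CPM with RMC-4550. In MV4-11 the sum was 3340 ± 140.2 and 2932 ± 49.0 CPM, and in SKNO-1 3194 ± 74.3 and 2491 ± 41.7 CPM. The sum of PSMB8, PSMB9, PSMB10, PSME1 and PSME2 was 374.7 ± 7.75 and 274 ± 6.63 CPM in Molm-14. In MV4-11 the same sum was 377 ± 15.9 and 370.1 ± 19.8 CPM, and in SKNO-1 300.8 ± 12.8 and 282 ± 5.16 CPM. The 41 other members went from 3416 ± 34.7 to 2603 ± 90.4 CPM in Molm-14. In MV4-11 they went from 2962 ± 140.8 to 2562 ± 29.4 CPM, and in SKNO-1 from 2893 ± 61.6 to 2209 ± 45.3 CPM. They held most of the sum already with DMSO, so their larger part of the fall does not show that the 5 genes were spared.

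A core of 13 members fell in all 3 lines, where 5.8% of the 12792 genes tested in every line did. They were PSMA4, PSMB1, the ATPases PSMC2, PSMC3, PSMC4 and PSMC5, the 19S subunits PSMD1, PSMD11, PSMD12, PSMD13 and PSMD14, the 19S chaperone PSMD10 and the 20S chaperone PSMG1. Of these 13, PSMD11, PSMD12, PSMD13 and PSMD14 kept all 3 calls in each of the 18 fits that left out 1 library. The MV4-11 calls of the other 9 were each lost in 1 to 4 of those fits, in every case without a library of MV4-11, and each of the 6 MV4-11 libraries ended at least 1 of these calls. In Molm-14 the call of PSMC5 was lost without DMSO replicates 1 or 3 or treated replicate 1, and that of PSMD10 without DMSO replicate 1 or treated replicates 1 or 3. In SKNO-1 the call of PSMC5 was lost without DMSO replicates 1 or 3 or treated replicates 2 or 3, and that of PSMA4 in 12 of the 18 fits. In all, 36 members fell in at least 1 line, and 10 passed the test in no line. PSMB8 was the only member that fell in 1 line and rose in another, a pattern that 1.2% of those genes showed.

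In the 20S alpha ring, 4 of 6 tested members fell in Molm-14, 1 of 7 in MV4-11 and 2 of 7 for SKNO-1. This count and those of other roles below are small. They are to be read against the 25.2%, 8.03% and 16.2% of all genes that fell in the 3 lines. PSMA7, an alpha-ring subunit, was 98.1, 101 and 106 CPM in SKNO-1 with DMSO and 60.6, 56.0 and 55.2 with RMC-4550, a fall of 0.83 (SE 0.12, adjusted p 7.8e-05). In Molm-14 it went from 93.6, 90.4 and 96.8 to 65.1, 45 and 61.5 CPM, a fall of 0.73 (SE 0.12). In both lines all treated libraries lay below all DMSO libraries. PSMA4 fell by 0.45, 0.39 and 0.30 in the 3 lines, with an adjusted p of 0.049 in SKNO-1, where the call was lost in 12 of the 18 fits that left out 1 library. PSMA5 fell by 0.57 (SE 0.11) in Molm-14 and had a value of 0.01 in MV4-11.

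Of the 4 structural beta subunits, 2 fell in Molm-14, 2 in MV4-11 and 3 for SKNO-1. PSMB1 fell by 0.32, 0.23 and 0.31 in the 3 lines. PSMB3 had the largest called fall of any member in MV4-11, 0.56 (SE 0.14), from 116, 89.2 and 128 to 85.1, 65.7 and 72.8 CPM, and the treated libraries did not overlap the DMSO libraries. That call was lost without DMSO replicate 3 or treated replicate 2 of MV4-11. It fell by 0.62 in SKNO-1 and had a value of -0.34 in Molm-14 (adjusted p 0.052).

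The constitutive catalytic subunits all fell in Molm-14, none passed the test in MV4-11, and PSMB6 fell in SKNO-1. With the mitochondrial share as a covariate, all 3 were called lower in MV4-11, where 22.2% of all genes were. PSMB6, which carries the caspase-like site, was 42.5, 42.3 and 45.1 CPM in Molm-14 with DMSO and 28.4, 18.2 and 31.3 with RMC-4550, a fall of 0.77 (SE 0.16, adjusted p 0.00087). In SKNO-1 it went from 43.8, 44.5 and 46.6 to 25.6, 26.6 and 25.1 CPM, a fall of 0.80 (SE 0.16, adjusted p 0.0012). In MV4-11 it was 32.5, 41.9 and 32.1 and 27.9, 31.0 and 34.4 CPM, groups that overlapped, with a change of -0.19 (adjusted p 0.501). The lowest Molm-14 value of PSMB6 was in treated replicate 2, the library with 15.02% mitochondrial reads, and without it the change was -0.54. PSMB5, the chymotrypsin-like subunit and the main target of bortezomib, was 44.2, 40.4 and 41.7 CPM in Molm-14 with DMSO and 36.4, 21.1 and 38.1 with RMC-4550. Its fall of 0.45 (SE 0.17, adjusted p 0.044) became a change of -0.18 without that library (adjusted p 0.026 with all 4 high-share libraries left out). The call was lost in 13 of the 18 fits that left out a single library. In SKNO-1 PSMB5 went from 44.4, 47.2 and 47.2 to 36, 33.8 and 37.6 CPM, all treated libraries being lower, with a change of -0.37 that missed the threshold (adjusted p 0.131). PSMB7, the trypsin-like subunit, fell by 0.26 (SE 0.09) in Molm-14 (adjusted p 0.024) and had a value of -0.12 in MV4-11 and -0.12 for SKNO-1. The Molm-14 value of PSMB7 was -0.14 without treated replicate 2, and its call was lost without that library or DMSO replicates 1 or 2 of Molm-14.

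The immunosubunits fell in Molm-14, showed no called change in MV4-11, and in SKNO-1 PSMB8 rose. PSMB8 was 122, 119 and 134 CPM in Molm-14 with DMSO and 81.9, 92.6 and 84.3 with RMC-4550, a fall of 0.54 (SE 0.08, adjusted p 8.4e-05). In SKNO-1 PSMB8 was 50.5, 51.0 and 55.5 CPM with DMSO and 60.1, 62.9 and 62.7 with RMC-4550, a rise of 0.24 (SE 0.08, adjusted p 0.04). In both lines the groups did not overlap, in opposite directions. In MV4-11 PSMB8 was 108, 103 and 116 and 113, 99.1 and 95.2 CPM, overlapping groups with a change of -0.09 (adjusted p 0.554). The SKNO-1 rise lay near the threshold: the call was lost without DMSO replicate 1 of Molm-14, DMSO replicates 1 or 2 of SKNO-1 or any treated SKNO-1 library (6 of the 18 fits that left out 1 library), with no filter on low values, without the intensity trend and with the replicate number as a block. It had an adjusted p of 0.0012 when the 4 libraries with a high mitochondrial share, none of them from SKNO-1, were left out.

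PSMB9 was 37.5, 37.1 and 35.9 CPM in Molm-14 with DMSO and 26.2, 26.2 and 25.2 with RMC-4550, a fall of 0.51 (SE 0.08, adjusted p 0.0001) with no overlap. In SKNO-1 it was 14.9, 14.9 and 16.6 and 14.2, 16.6 and 15.5 CPM, with a change of -0.0023, and in MV4-11 the change was -0.04. PSMB10 was 30.1, 30.2 and 31.7 CPM in Molm-14 with DMSO and 24.6, 16.0 and 26.7 with RMC-4550, a fall of 0.48 (SE 0.16, adjusted p 0.021). Without the lowest of these, treated replicate 2, the change was -0.26, and the call was lost in the fits without that library or DMSO replicate 3 of Molm-14. In SKNO-1 PSMB10 went from 38.9, 43.4 and 43.7 to 48.3, 50.9 and 49.3 CPM, every treated library being above every DMSO library, and the change of 0.24 did not pass the test (adjusted p 0.297). In MV4-11 it was 30.7, 42.1 and 30.3 CPM with DMSO and 39.4, 46.4 and 46.6 with RMC-4550, with a change of 0.37 (adjusted p 0.147). The 2 low MV4-11 DMSO libraries are those with a high mitochondrial share, and without the high-share libraries the value was 0.14.

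**Figure D3:**
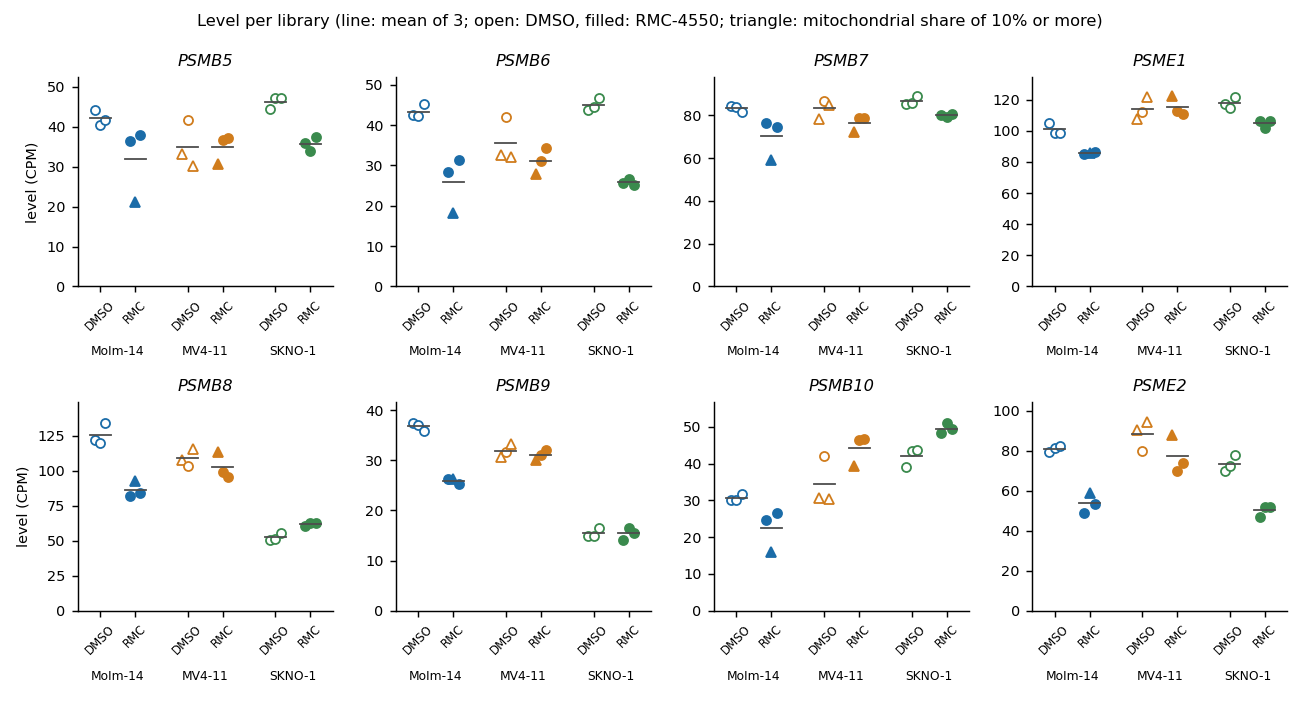
Level in CPM of the constitutive catalytic subunits, the immunosubunits and the 11S activator genes in each library, by line and treatment. Open symbols are DMSO, filled symbols RMC-4550, triangles the 4 libraries with at least 10% mitochondrial reads, and horizontal lines the means of 3. PSMB8 is lower with treatment in Molm-14 and higher in SKNO-1.

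Exons of PSMB8 and PSMB9 lie close together on chromosome 6 (PSMB8 at chr6:32840717-32844703, reverse strand, and PSMB9 at chr6:32844136-32859585, forward strand, GRCh38, GENCODE 29) and share 139 exonic bases on opposite strands. The antisense transcript PSMB8-AS1, at a mean of 12.9 CPM, overlaps 20.6% of the exonic bases of PSMB8. Whether the reads were counted by strand is not given in the sources used here, so values of these genes could include reads from each other. PSMB10 shares 34.8% of its exonic bases with a same-strand gene model, AC040162.1, that was at 3.25 CPM.

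The 250 bases before each start site in RefSeq (GRCh38.p14) were searched on both strands for 4 short motifs, because interferon and the antioxidant response are known routes of proteasome gene regulation. Windows were present for 40 of the 46 members, 49 windows in all, since some genes have several starts. PSMA7, PSMB1, PSMB6, PSMB7, PSMD4 and PSMG3 were not matched. The interferon-type motif GAAANNGAA was in 5 of the 49 windows, 10.2%, and in 6.88% of all 35116 windows. The same 9 letters were found before the RefSeq starts of PSMB10, PSME2 and the chaperone PSMG4, which are shown with the motif in capitals, beside the PSMB8 match to the STAT-type motif TTCNNNGAA. That motif was in 12.2% of the members' windows and 6.57% of all windows. Each stretch is 30 bases, 5′ to 3′ on the strand of the gene.
PSMB10: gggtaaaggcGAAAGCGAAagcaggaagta
PSME2: cctggggagtGAAAGCGAAagcccgggcga
PSMG4: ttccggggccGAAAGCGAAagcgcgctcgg
PSMB8: aactgtccttTTCTCGGAAaaggcaggggg
They lie at chr16:67936852-67936881, reverse strand for PSMB10, chr14:24146619-24146648, reverse strand for PSME2, chr6:3258904-3258933, forward strand for PSMG4 and chr6:32844093-32844122, reverse strand for PSMB8. The first motif base is 21 bases before the start for PSMB10, 28 for PSME2, 33 for PSMG4 and 65 for PSMB8, whose match precedes the downstream one of its 2 starts. All 4 stretches lie inside the GENCODE spans of their genes, and of the 250 bases of these windows, 237 for PSMB10, 250 for PSME2, 53 for PSMG4 and 139 for PSMB8 are annotated as UTR. The members that share the interferon-type letters did not move alike: PSME2 fell in Molm-14 and SKNO-1, PSMB10 fell in Molm-14 alone, and PSMG4 passed the test in no line.

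The antioxidant-type motif TGACNNNGC was in 13 of the 49 windows, 26.5%, and in 10.9% of all windows, and the CCAAT motif was in 34.7% and 32%. Among the 13 members that fell in every line, PSMA4, PSMC5, PSMD12 and PSMG1 held the antioxidant-type letters. PSMD14, the deubiquitinase of the 19S lid and among the largest falls in each line, held a CCAAT match on each strand in overlapping letters. These stretches show the match in capitals.
PSMA4: gtgggcacgaTGACTCTGCaccgcctcctc
PSMC5: gaccggatctGCTGTGTCAgcgccgccctc
PSMD12: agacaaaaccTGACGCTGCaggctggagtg
PSMG1: gcccagggcaTGACAGCGCgggcgggcggt
PSMD14: tccgtcgtctCCAATtggccgtcggggaac
They lie at chr15:78540650-78540679, forward strand for PSMA4, chr17:63827654-63827683, forward strand for PSMC5, chr17:67366723-67366752, reverse strand for PSMD12, chr21:39183615-39183644, reverse strand for PSMG1 and chr2:161308367-161308396, forward strand for PSMD14. The match in PSMC5 is on the strand opposite to the gene, and all but the PSMD12 stretch lie inside the GENCODE spans of their genes. Of these windows, 4 bases for PSMA4, 248 for PSMC5, 50 for PSMD12 and all 250 for PSMG1 and PSMD14 are annotated as UTR. These are matches of letters and not measured binding.

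Within a library, the ratio of an immunosubunit to its constitutive counterpart was higher in treated than in DMSO SKNO-1 cells for all 3 pairs. The log2 ratio of PSMB8 to PSMB5 was 0.18, 0.11 and 0.23 in the SKNO-1 DMSO libraries and 0.74, 0.89 and 0.74 in the treated ones, a mean difference of 0.62 with an SD of 0.11. For PSMB9 to PSMB6 it was -1.56, -1.58 and -1.49 and then -0.86, -0.68 and -0.69, a difference of 0.80 with an SD of 0.11. For PSMB10 to PSMB7 it was -1.14, -0.99 and -1.03 and then -0.73, -0.64 and -0.71, a difference of 0.36 with an SD of 0.09. All 3 treated SKNO-1 libraries lay above all 3 DMSO libraries for each pair, and these ratios are given with no test. The SKNO-1 changes of the single genes were 0.24 for PSMB8 and -0.37 for PSMB5. They were -0.0023 for PSMB9 and -0.80 for PSMB6, and 0.24 for PSMB10 and -0.12 for PSMB7. Only PSMB8 and PSMB6 passed the test among them. In terms of levels per length, PSMB9 stood at 0.374 of PSMB6 with DMSO and 0.651 with RMC-4550. In Molm-14 the mean differences were -0.09 for PSMB8 to PSMB5, 0.27 for PSMB9 to PSMB6 and -0.23 for PSMB10 to PSMB7, with overlapping groups. In MV4-11 they were -0.09, 0.15 and 0.49, and only the PSMB10 pair was higher in every treated library. Treated Molm-14 replicate 2 was the extreme value of its group for all 3 pairs, and without it the Molm-14 differences were -0.41, 0.02 and -0.12. Without the high-share libraries the MV4-11 differences were 0.09, 0.35 and 0.28, so that the sign for PSMB8 to PSMB5 changed.

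**Figure D4:**
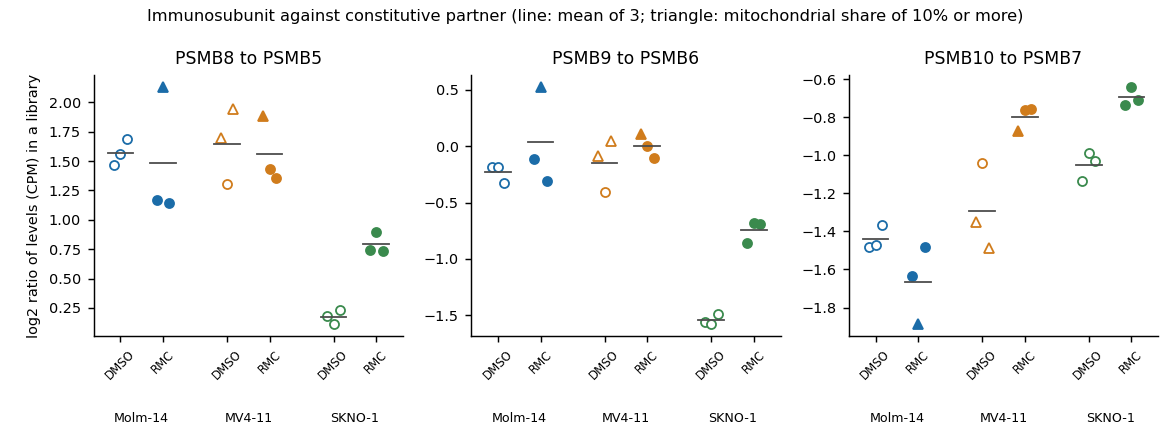
Log2 ratio of each immunosubunit to its constitutive counterpart in each library, by line and treatment. Open symbols are DMSO, filled symbols RMC-4550, triangles the 4 libraries with at least 10% mitochondrial reads, and horizontal lines the means of 3. The SKNO-1 groups are apart for all 3 pairs.

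Both 11S activator genes fell in Molm-14, and PSME2 also fell in SKNO-1, where PSMB8 rose. PSME2 was 79.3, 81.4 and 82.3 CPM in Molm-14 with DMSO and 48.6, 58.9 and 53.5 with RMC-4550, a fall of 0.60 (SE 0.10, adjusted p 0.00015). In SKNO-1 it went from 69.8, 72.4 and 77.9 to 47.1, 52.0 and 51.9 CPM, a fall of 0.54 (SE 0.10, adjusted p 0.00062). Neither pair of groups overlapped. In MV4-11 its change was -0.20 (adjusted p 0.216), with overlap. PSME1, its partner in the 11S ring, fell by 0.23 (SE 0.07) in Molm-14, from 105, 98.9 and 98.5 to 85.2, 85.8 and 86.1 CPM, a call lost without DMSO replicate 1. PSME1 had values of 0.02 in MV4-11 and -0.17 for SKNO-1 (adjusted p 0.087). Of the 5 interferon-induced genes, all 5 fell in Molm-14, 0 passed limma's adjusted test in MV4-11, and in SKNO-1 1 rose and 1 fell. In MV4-11, PSMB10 alone was higher at an unadjusted p under 0.05.

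PSME3 and PSME4 had the largest called falls in Molm-14. PSME3, the nuclear activator REG gamma, was 112, 115 and 123 CPM with DMSO and 74.6, 33 and 70.4 with RMC-4550 in Molm-14, a fall of 1.06 (SE 0.29, adjusted p 0.007). In SKNO-1 it was 64.8, 63.6 and 66.3 and 37.7, 43.0 and 36.6 CPM, with no overlap and a change of -0.73 that missed the threshold (adjusted p 0.073). Both lines had lower values with treatment in every library. PSME4, the activator PA200, went from 111, 112 and 115 to 67.4, 44.7 and 59.4 CPM in Molm-14, a fall of 0.99 (SE 0.19, adjusted p 0.00057), and fell by 0.69 (SE 0.19) in SKNO-1 (adjusted p 0.013). Without treated replicate 2 of Molm-14 the PSME3 change there was -0.69. In MV4-11 the values were 0.15 for PSME3 and -0.08 for PSME4. Without the high-share libraries, which leaves 1 DMSO library of MV4-11, they were -0.26 and -0.46. PSMF1, which encodes the proteasome inhibitor PI31, passed in no line.

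Of the 17 subunits of the 19S particle, 14 fell in Molm-14, 9 in MV4-11 and 14 for SKNO-1. All 6 ATPases fell in Molm-14, 4 of 6 in MV4-11 and 5 of 6 for SKNO-1. PSMC3, an ATPase of the 19S base, was 67.7, 72.1 and 73.1 CPM in Molm-14 with DMSO and 44.0, 41.1 and 46.5 with RMC-4550, a fall of 0.69 (SE 0.09). In SKNO-1 PSMC3 went from 62.2, 60.9 and 64.8 to 40.6, 34.3 and 37.9 CPM, a fall of 0.74 (SE 0.09). In MV4-11 it went from 57.0, 64.1 and 52.8 to 46.5, 46.2 and 45.5 CPM, a fall of 0.33 (SE 0.09, adjusted p 0.017). Treated and DMSO libraries did not overlap in any line. PSMC2 fell by 0.48, 0.29 and 0.48 in the 3 lines, PSMC4 by 0.35, 0.34 and 0.56, and PSMC5 by 0.44, 0.50 and 0.43. In MV4-11 the PSMC5 groups overlapped although the call passed. PSMC5 shares 19.5% of its exonic bases with FTSJ3, at 41.1 CPM, on the opposite strand. PSMC1 shares 75.8% of its exonic bases with NRDE2, also on the opposite strand, and values of both ATPase genes could include reads from these neighbours.

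Of the 11 non-ATPase subunits, 8 fell in Molm-14, 5 in MV4-11 and 9 for SKNO-1. PSMD14 was 56.2, 55.7 and 55.4 CPM in Molm-14 with DMSO and 29.5, 31.8 and 29.8 with RMC-4550, a fall of 0.88 (SE 0.10, adjusted p 5.2e-06). In MV4-11 it went from 39.1, 49.5 and 43.5 to 32.1, 33.7 and 26.5 CPM, a fall of 0.52 (SE 0.10, adjusted p 0.0026). In SKNO-1 it went from 43.3, 40.5 and 40.7 to 26.1, 22.5 and 24.9 CPM, a fall of 0.76 (SE 0.10, adjusted p 4e-05). PSMD14 was thus the only member among the 5 largest called changes of all 3 lines, and its groups did not overlap in any of them. PSMD1, a large scaffold subunit of the 19S base, fell by 0.84, 0.45 and 0.74 in the 3 lines. PSMD11 fell by 0.39, 0.41 and 0.60, PSMD12 by 0.56, 0.43 and 0.44, and PSMD13 by 0.30, 0.39 and 0.53 in the same lines, all 3 being subunits of the 19S lid. PSMD2, the other large base subunit, had the largest fall in SKNO-1, 0.94 (SE 0.23, adjusted p 0.0062), from 120.3, 120.4 and 122 to 60.1, 66.1 and 62.3 CPM. The ubiquitin receptor gene PSMD4 passed in no line, with values of -0.09, 0.07 and 0.06, and is named here although it was outside the naming rule.

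Among the assembly chaperones, PSMG1, a partner in the chaperone pair that starts the alpha ring, fell in every line. It was 44.0, 40.5 and 44.1 CPM in Molm-14 with DMSO and 25.2, 34.7 and 25.9 with RMC-4550, 37.3, 33.7 and 47.3 and 32.3, 23.2 and 26.0 in MV4-11, and 30.9, 27.2 and 28.9 and 20, 18.1 and 19.6 in SKNO-1. The falls were 0.60, 0.54 and 0.59 with adjusted p-values of 0.0033, 0.022 and 0.0065. PSMG3 fell by 0.83 (SE 0.23) in SKNO-1 (adjusted p 0.016), where all treated libraries were lower and the call was lost without DMSO replicate 3 or treated replicate 1. PSMG3 had a value of -0.11 in Molm-14 and of -0.66 in MV4-11 (adjusted p 0.079). The 19S chaperone PSMD10, also known as gankyrin, fell by 0.30, 0.41 and 0.46 in the 3 lines.

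The response itself was compared between lines by interaction terms in the same fit. For SKNO-1 against the mean response of the FLT3-ITD lines, 1 of 46 members differed, where 3.45% of all genes did. This was PSMB8, whose response was higher in SKNO-1 by 0.56 (SE 0.10, adjusted p 0.0053). The PSMB9 difference of 0.27 and the PSMB10 difference of 0.29 did not pass (adjusted p 0.177 and 0.587). For Molm-14 against MV4-11, 9 of 46 members differed, where 17.6% of all genes did, and all 9 responses were lower in Molm-14, as were 8.04% of all genes. They included all 3 immunosubunits, PSMB10 by -0.86, PSMB9 by -0.47 and PSMB8 by -0.45, with adjusted p-values of 0.018, 0.012 and 0.018. The others were PSME4, PSMD8, PSMA5, PSMD3, PSMB2 and PSMC3. Without the 4 high-share libraries the differences were -0.40 for PSMB10, -0.51 for PSMB9, -0.51 for PSMB8 and -0.37 for PSME4, which had the largest with all libraries, -0.92. The calls of PSMA5, PSMD3, PSMB2 and PSMC3 were lost in that fit, at -0.28, -0.22, -0.17 and -0.17. As a share, 9 of 46 is close to that of all genes. Leaving out single libraries moved the 9 to between 2, without DMSO replicate 1 of MV4-11, and 19, without its DMSO replicate 2. It came to 3 or 5 without any DMSO library of Molm-14, DMSO replicate 3 of MV4-11 or treated replicates 2 or 3 of MV4-11. For the SKNO-1 response the count was 2 without treated replicate 2 of Molm-14 and 8 without the 4 high-share libraries.

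Levels of several members differed between libraries with a high and a low mitochondrial share. PSMD7, a subunit of the 19S lid, was 5.39 to 8.35 CPM in the 4 libraries with a share of 10% or more and 11.5 to 29.9 CPM in the other 14. In MV4-11 it was 5.87, 27.3 and 5.39 CPM with DMSO and 8.35, 19.2 and 17.1 with RMC-4550. The change of 0.55 with all libraries became -0.59 without the 4, which leaves 1 MV4-11 DMSO library. The alpha subunit PSMA6 was 4.61 to 7.71 CPM in the 4 libraries and 8.97 to 13.95 CPM in the other 14, and the alpha subunit PSMA1 was 34.0 to 42.4 and 17.6 to 32.4 CPM. PSMB5 was 21.1 to 33.2 CPM in the 4 libraries and 33.8 to 47.2 CPM in the others, and PSME4 was 39.9 to 44.7 and 45.6 to 114.7 CPM. The 19S subunit PSMD3 was 86.7 to 100.9 and 104.1 to 134.2 CPM, and the 20S chaperone PSMG2 was 92 to 107.8 and 54.9 to 84.3 CPM. These 7 members did not overlap between the sets of libraries, and the share of all genes that did the same is not given here. The 4 libraries are all from Molm-14 and MV4-11, so line and mitochondrial share are mixed. PSMA1, PSMA6, PSMD3 and PSMG2 are named here after their values were seen. PSMD2 in MV4-11 was 72.6, 129 and 68.5 CPM with DMSO, of which replicates 1 and 3 are the high-share ones. PSME3 in the same libraries was 45, 87.7 and 43.3 CPM. PSMG3 was on the other side, 26.1, 15.8 and 29.6 CPM. In each case the replicate with 5.87% mitochondrial reads stood apart from the others.

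Without the 4 libraries, more members fell in each line: 38 of 45 in Molm-14, 26 of 46 in MV4-11 and 38 of 46 for SKNO-1, where 32.1%, 19.6% and 32.1% of all genes fell. PSMB8 and PSMB10 then both rose in SKNO-1, and the 5 interferon-induced genes still had 5 falls in Molm-14 and 0 calls in MV4-11. SKNO-1 held none of the 4 libraries, and its estimates are the same in both fits apart from the shared spread. MV4-11 keeps 1 DMSO library in this fit, so its spread is assumed to be that of the other groups. When the share entered the fit as a covariate, 37, 26 and 38 members fell in the 3 lines, where 30.2%, 22.2% and 29.5% of all genes did. The part of the high-share libraries in the changes was not tested beyond these fits.

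**Figure D5:**
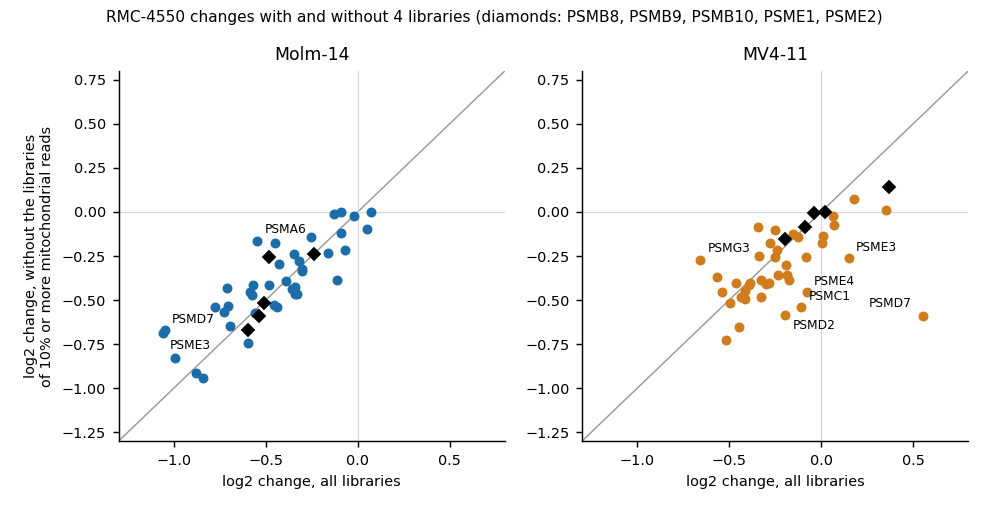
Log2 change with RMC-4550 of each member in Molm-14 and MV4-11 with all libraries (horizontal) and without the 4 libraries of at least 10% mitochondrial reads (vertical). The line marks equal values, and black diamonds are PSMB8, PSMB9, PSMB10, PSME1 and PSME2. PSMD7 in MV4-11 changes sign between the axes.

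Genes around the proteasome were read from lists of related functions. Of 10 assembly, accessory and deubiquitinating genes, 4 fell in Molm-14, 3 in MV4-11 and 4 for SKNO-1, where 25.2%, 8.03% and 16.2% of all genes fell and 21.5%, 5.85% and 10.8% rose. The counts in these short lists are to be read against those shares. POMP, the maturation factor of the 20S core, was 167, 154 and 155 CPM in Molm-14 with DMSO and 98.1, 118 and 102 with RMC-4550, and it fell by 0.59, 0.61 and 0.64 in the 3 lines. UCHL5, a deubiquitinase bound to the 19S particle, fell by 1.10, 0.45 and 0.83. Both fell in every line, as 13 members did. ADRM1, the 19S ubiquitin receptor that holds UCHL5, fell by 0.34 in Molm-14 and 0.51 in SKNO-1. Of 8 regulators of constitutive subunit transcription, 1 fell and 1 rose in Molm-14. DDI2, a protease that activates the transcription factor NRF1, fell by 0.60, and MAFG, a DNA-binding partner of that factor family, rose by 0.43.

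Of 8 regulators of immunosubunit transcription, IRF9, the DNA-binding part of the interferon-activated ISGF3 complex, rose in all 3 lines, by 1.05, 1.06 and 0.49. STAT2 rose by 0.59 in MV4-11, where no immunosubunit passed. NLRC5, a transactivator of MHC class I genes, fell by 0.58 in MV4-11. Among 9 genes next to the immunosubunits or in peptide loading, TAP2, a subunit of the peptide transporter and a neighbour of PSMB8, fell by 1.41 in Molm-14, while B2M rose by 0.36. In SKNO-1 HLA-C rose by 0.36. Of 5 ubiquitin genes, UBB fell by 0.89 in Molm-14.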

How the data were processed

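Messenger RNA was selected with oligo(dT) beads and read as DNA nanoballs, as the labels' protocols state. STAR, FastQC, limma and GRCh38 are named in the submitters' processing notes. Their versions, the annotation and whether reads were counted by strand are not given in the sources used here. The authors deposited log2 values per gene, the log2 of reads plus 0.5 per 1e6 of an effective library size. The reads were recovered from these values: 100% of values under 200 reads were whole numbers within 0.05. Levels in CPM were computed as reads per 1e6 of that effective library size, and symbols were matched for 40069 of 40184 gene identifiers.

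Changes were tested on the deposited log2 values with limma 3.58.1 in R 4.3.3, with 1 coefficient per group over the 18 libraries, an intensity trend and Benjamini-Hochberg adjustment over all genes tested. The fit held 16262 genes, those reaching 1 CPM in 3 or more libraries. A gene was tested in a contrast where at least 3 libraries of a line involved had at least 1 CPM, and calls were made below an adjusted p of 0.05. The test was checked on simulated data. Transcript lengths and positions came from GENCODE 29, promoter windows from RefSeq GRCh38.p14, and Python 3.11.15 with pandas 2.3.3 made the summaries.

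Members, lists and tests were chosen with earlier results of these data known. Named by rule were the catalytic subunits, the immunosubunits, PSME1 and PSME2, the 5 largest called changes per line, members called alike in all 3 lines or oppositely in 2, and the 5 largest called differences between lines. PSMA1, PSMA6, PSMB2, PSMB4, PSMC1, PSMD3, PSMD4, PSMF1, PSMG2 and PSMG4 were named after their values were seen. Alternatives were other pseudocounts, filters, scalings and variance models, voom weights on the recovered reads, separate fits of the lines, a replicate block, the mitochondrial share as a covariate, a fold limit of 1.5 and leaving out each library. Leaving out the 4 libraries over 10% mitochondrial reads was added after the data were seen. PSMA8 was not tested in Molm-14, and some results on related genes are not reported here.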

Additional observations from a re-analysis of the deposited data

Results flagged for a closer look

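The response to RMC-4550 differed between lines by an interaction term for 10 results, in units of log2 change. For SKNO-1 against the other lines it was 1 of 46 members, where 3.45% of all genes differed. For Molm-14 against MV4-11 it was 9 of 46, close to the 17.6% of all genes. PSMB8 differed between SKNO-1 and the mean of the other lines by 0.56 (limma adjusted p 0.0053), with higher treated levels in 3 of 3 SKNO-1 libraries and lower ones in 3 of 3 Molm-14 libraries. The Molm-14 response was lower than the MV4-11 response for PSME4 by -0.92, PSMB10 by -0.86, PSMD8 by -0.62, PSMA5 by -0.58, PSMB9 by -0.47, PSMB8 by -0.45, PSMD3 by -0.41, PSMB2 by -0.38 and PSMC3 by -0.37. For each of these 9 genes all 3 treated Molm-14 libraries lay below all 3 Molm-14 DMSO libraries. The same held for 37 of the 45 members tested and for 33.1% of all genes. Among them PSMC3 alone was called in MV4-11 as well, where it also fell.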

How the results depend on the processing

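With a fold limit of 1.5, the members lower with RMC-4550 were 11 in Molm-14, 0 in MV4-11 and 11 for SKNO-1, 0 were higher in SKNO-1, the response of SKNO-1 differed for 0 and that of Molm-14 from MV4-11 for 3, and the DMSO comparisons had 5 (Molm-14 and MV4-11), 8 (SKNO-1 and Molm-14) and 8 (SKNO-1 and MV4-11). Without a filter on low values, 9 were lower in MV4-11, 0 higher in SKNO-1, 2 differed in response between Molm-14 and MV4-11, and 13 differed between these lines in DMSO. Quantile normalization gave 1 higher in MV4-11, 2 higher in SKNO-1 and 12 between Molm-14 and MV4-11 in DMSO. Of all genes it had 1061 of 14739 higher in MV4-11 and 1958 of 14670 higher in SKNO-1. Between Molm-14 and MV4-11 in DMSO it had 4333 of 15252 higher and 3672 lower. A fit per line gave 0 lower in MV4-11 and 2 higher in SKNO-1, and a fit without a trend gave 0 higher in SKNO-1. For the fold limit, the missing filter, the fit per line and the fit without a trend, shares of all genes are not given here. With the mitochondrial share as a covariate, 22.2% of all genes were lower in MV4-11 and 20% higher in SKNO-1. How many of all genes differed in the SKNO-1 response in that fit is not given here. Of the members, 26 were lower in MV4-11, 2 higher in SKNO-1 and 10 differed in the SKNO-1 response. Without the 4 high-share libraries, an alternative chosen after seeing the data, these were 26, 2 and 8. The cause of these differences was not tested, except that a fold limit keeps fewer members by construction.

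Leaving out each library in turn gave 0 to 2 members higher and 7 to 18 lower in MV4-11, 0 to 1 higher in SKNO-1, 1 to 2 for the SKNO-1 response, 2 to 19 for the Molm-14 response against MV4-11 and 11 to 25 between these lines in DMSO. In Molm-14 it gave 26 to 34 lower, and in SKNO-1 21 to 29.

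Among the named members, signs reversed only where the change was not called with all libraries. In MV4-11 the log2 changes with the share as a covariate were -0.2250 for PSMB5, -0.2605 for PSME3, -0.1070 for PSMA5 and -0.0788 for PSMD7. Of these, PSMB5 and PSME3 passed the test in that fit (limma adjusted p 0.0298 and 0.0143). Without the 4 libraries the changes of these 4 genes were -0.1746, -0.2623, -0.1348 and -0.5896, with -0.0025 for PSME1. PSMB9 was 0.0030 in MV4-11 and 0.0614 in SKNO-1 under median-ratio scaling and 0.0024 and 0.0970 under quantile normalization, which also gave 0.0464 for PSMG3 in Molm-14. Leaving out single libraries, the values in MV4-11 ran from -0.0573 to 0.0825 for PSMA5, -0.0989 to 0.1365 for PSMB5, -0.3608 to 0.0939 for PSMD2, -0.1665 to 0.0352 for PSMD8, -0.0248 to 0.0714 for PSME1, -0.0278 to 0.4802 for PSME3 and -0.215 to 0.1914 for PSME4. PSMB9 in SKNO-1 ran from -0.0553 to 0.0577, and PSMG3 in Molm-14 from -0.3856 to 0.0317.

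Deviations of same-numbered DMSO and treated libraries correlated at -0.052, -0.041 and 0.003 in Molm-14, 0.394, 0.591 and -0.399 in MV4-11 and 0.128, 0.013 and 0.04 for SKNO-1, so the numbers were not taken to pair samples. With the replicate number as a block, 0 members were higher in SKNO-1, and not every library correlated best with its own number.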
